A study of Mus musculus with 154 samples.

Results

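The growth hormone receptor and IGF axis was followed here through 10 genes of liver RNA. These genes were chosen by symbol for their roles, with earlier results of these data known. All 10 were present among the 13289 genes of the table. They were the receptors Ghr and Prlr, the transcription factors Stat5a and Stat5b, the feedback inhibitors Socs2 and Cish, the hormone Igf1, its serum partner Igfals, and the binding proteins Igfbp2 and Igfbp3. The livers came from mice listed as male, 5 weeks old and fasted overnight, of 24 strains built from the inbred strain C57BL/6J (B6). The 8 single chromosome substitution strains (CSSs), with 63 mice, each carried 1 A/J-derived chromosome (3, 4, 5, 6, 8, 10, 14 or 17) in the heterozygous state, for example (B6 x B6.A8)F1, called A8 below, and 15 double CSSs, with 71 mice, carried a pair of them, for example (B6.A14 x B6.A8)F1, called A14:A8 below. B6 itself gave 20 mice, A5 gave 7 and the other single CSSs 8 each, and the double CSSs gave 5 each except A6:A8 with 6, A6:A5, A17:A10 and A17:A4 with 4, and A3:A8 with 3. The substituted chromosomes were never homozygous, so that recessive effects of A/J alleles could not appear, and a substitution stands for a whole chromosome rather than a gene.

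Growth hormone from the pituitary binds its receptor on hepatocytes and activates the kinase JAK2, which phosphorylates STAT5. Phosphorylated STAT5 enters the nucleus and induces Igf1, Igfals, Socs2 and Cish, and the last pair feed back on the receptor. IGF-1 circulates largely in a complex with IGFBP-3 and the acid labile subunit encoded by Igfals, and in rodents the pattern of growth hormone pulses differs between the sexes and sets the sex-biased expression of many liver genes. Fasting is known to lower hepatic growth hormone sensitivity, and all mice here had been fasted.

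The counted reads lay between 4638701 and 30465477 per mouse (median 16116424). All 7 hepatocyte markers on the list were detected. They summed to between 55240 and 160409 CPM (the count scaled to the library's size) in every mouse. Krt19 of bile duct cells and Cd3e of T lymphocytes were not among the genes of the table. The other listed markers of bile duct cells and lymphocytes were among them. So were all listed markers of Kupffer, sinusoidal endothelial, stellate and red blood cells. A single A14:A4 mouse, replicate 3, had 2.94 CPM over 4 Y-linked genes, where all others had between 228 and 432, which goes against its label as male. In this mouse Ghr stood at 213 CPM (306 to 370 in the other 4 A14:A4 mice), Igf1 at 446 (599.9 to 744.6), Igfals at 19.1 (36.5 to 41.2), Prlr at 114 (60.6 to 86.0) and Socs2 at 16.3 (5.14 to 10.8), so that these 5 genes lay outside the range of its 4 strain mates. The other 5 members lay within it. Interactions of A14:A4 and the ends of the strain order are therefore given with and without it. No litter, flow cell or date was given for the libraries, so that batches could not be examined, and p-values measure the spread between mice bred in at least 3 cages per cross. The RNA was from whole liver tissue, in which fewer cells of a type and less RNA per cell cannot be told apart.

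In the mm10 genome Ghr (ENSMUSG00000055737) lies on chr15:3317760-3583492 and Prlr (ENSMUSG00000005268) on chr15:10177238-10349180. Stat5b (ENSMUSG00000020919, chr11:100780731-100850724) and Stat5a (ENSMUSG00000004043, chr11:100859351-100885169) are neighbours, and Igfbp3 (ENSMUSG00000020427, chr11:7206086-7213923) is on the same chromosome. Igf1 (ENSMUSG00000020053, chr10:87858265-87937042) and Socs2 (ENSMUSG00000020027, chr10:95385362-95417180) lie on chromosome 10 and Igfals (ENSMUSG00000046070, chr17:24865997-24882010) on chromosome 17, and these 3 were the members that a substitution could affect in cis. Cish (ENSMUSG00000032578) lies on chr9:107296026-107302784 and Igfbp2 (ENSMUSG00000039323) on chr1:72824503-72852474, and neither chromosome was substituted in any strain. Annotated genes overlap some members, namely Gm21973 on the strand of Prlr, Stat3 on the opposite strand to Stat5a, and antisense transcripts at Cish and Igf1. The libraries were stranded, but whether reads were counted by strand was not given, so that some reads could be ambiguous between such genes. Stat5a and Stat5b are close paralogs, and 8.21% of all 50-base stretches of the Stat5a transcripts also occur in Stat5b.

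STAT5 dimers are known to bind the palindrome TTCNNNGAA, and the promoters of the member genes were searched for these letters, which read the same on both strands. RefSeq promoters of the build GRCm38.p6, each 300 bases long with 250 before the start site, were found for 9 members with 17 promoters between them, and there was no entry for Socs2. The motif stood in 4 of these 17 promoters, belonging to Cish, Igfals and Prlr, and in 8.3% of all 32851 promoters of the table. Cish had 2 copies 11 bases apart, the first beginning at the start site, and 0.457% of all promoters held at least 2 copies. The stretches around the motifs are shown because these are the members with a candidate STAT5 element next to a start site, and capitals mark the motif.
Cish, chr9:107296559-107296683, plus strand: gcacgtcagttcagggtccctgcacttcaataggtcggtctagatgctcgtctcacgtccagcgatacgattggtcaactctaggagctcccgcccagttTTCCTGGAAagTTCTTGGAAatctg
Igfals, upstream start site, chr17:24877594-24877843, plus strand: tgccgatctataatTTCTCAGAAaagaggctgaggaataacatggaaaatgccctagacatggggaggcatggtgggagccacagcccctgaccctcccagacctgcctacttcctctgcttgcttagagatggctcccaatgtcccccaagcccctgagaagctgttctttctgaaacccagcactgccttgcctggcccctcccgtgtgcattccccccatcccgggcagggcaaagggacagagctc
Igfals, downstream start site, chr17:24877981-24878230, plus strand: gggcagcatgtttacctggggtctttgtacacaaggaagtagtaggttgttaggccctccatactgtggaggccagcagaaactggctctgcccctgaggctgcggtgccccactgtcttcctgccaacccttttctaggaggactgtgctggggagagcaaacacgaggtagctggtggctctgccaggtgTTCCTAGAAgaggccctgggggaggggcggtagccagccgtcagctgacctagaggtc
Prlr, chr15:10223756-10223905, plus strand: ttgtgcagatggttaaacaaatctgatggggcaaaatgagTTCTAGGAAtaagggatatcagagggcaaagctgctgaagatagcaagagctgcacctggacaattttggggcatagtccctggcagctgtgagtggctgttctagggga
In Igfals the motif began 236 bases before the upstream start site and 58 before the downstream one, and in Prlr 110 bases before the start site. The match says only that these letters are present, and no binding was measured.

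The members differed widely in level. Per kilobase of exon, Igfbp2 was the most abundant in B6 at 309 CPM per kb, followed by Igf1 at 70.6, Ghr at 36.3, Igfbp3 at 13.6 and Igfals at 13.1. Stat5b stood at 7.71 CPM per kb, Prlr at 6.04, Socs2 at 1.22, Stat5a at 1.10 and Cish at 0.671. The receptor thus outnumbered both STAT5 transcripts, and the 2 feedback inhibitors were among the 3 rarest.

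Mice of the same strain varied most in Socs2, Cish and Igfals. Among the 20 B6 mice the SD of log2 CPM was 0.87 for Socs2, 0.87 for Cish and 0.64 for Igfals, where the median gene had 0.23 and the 90th percentile of all genes was 0.52. Ghr had an SD of 0.32 on the same scale and Prlr 0.40. Igf1, which growth hormone signalling induces as it does these 3 genes, had 0.33. This spread set the precision, since the standard error of a main effect was 0.31 to 0.36 log2 units for Socs2 and 0.32 to 0.40 for Cish but 0.07 to 0.08 for Ghr. For Socs2 and Cish only large differences could therefore have been detected.

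**Figure D1:**
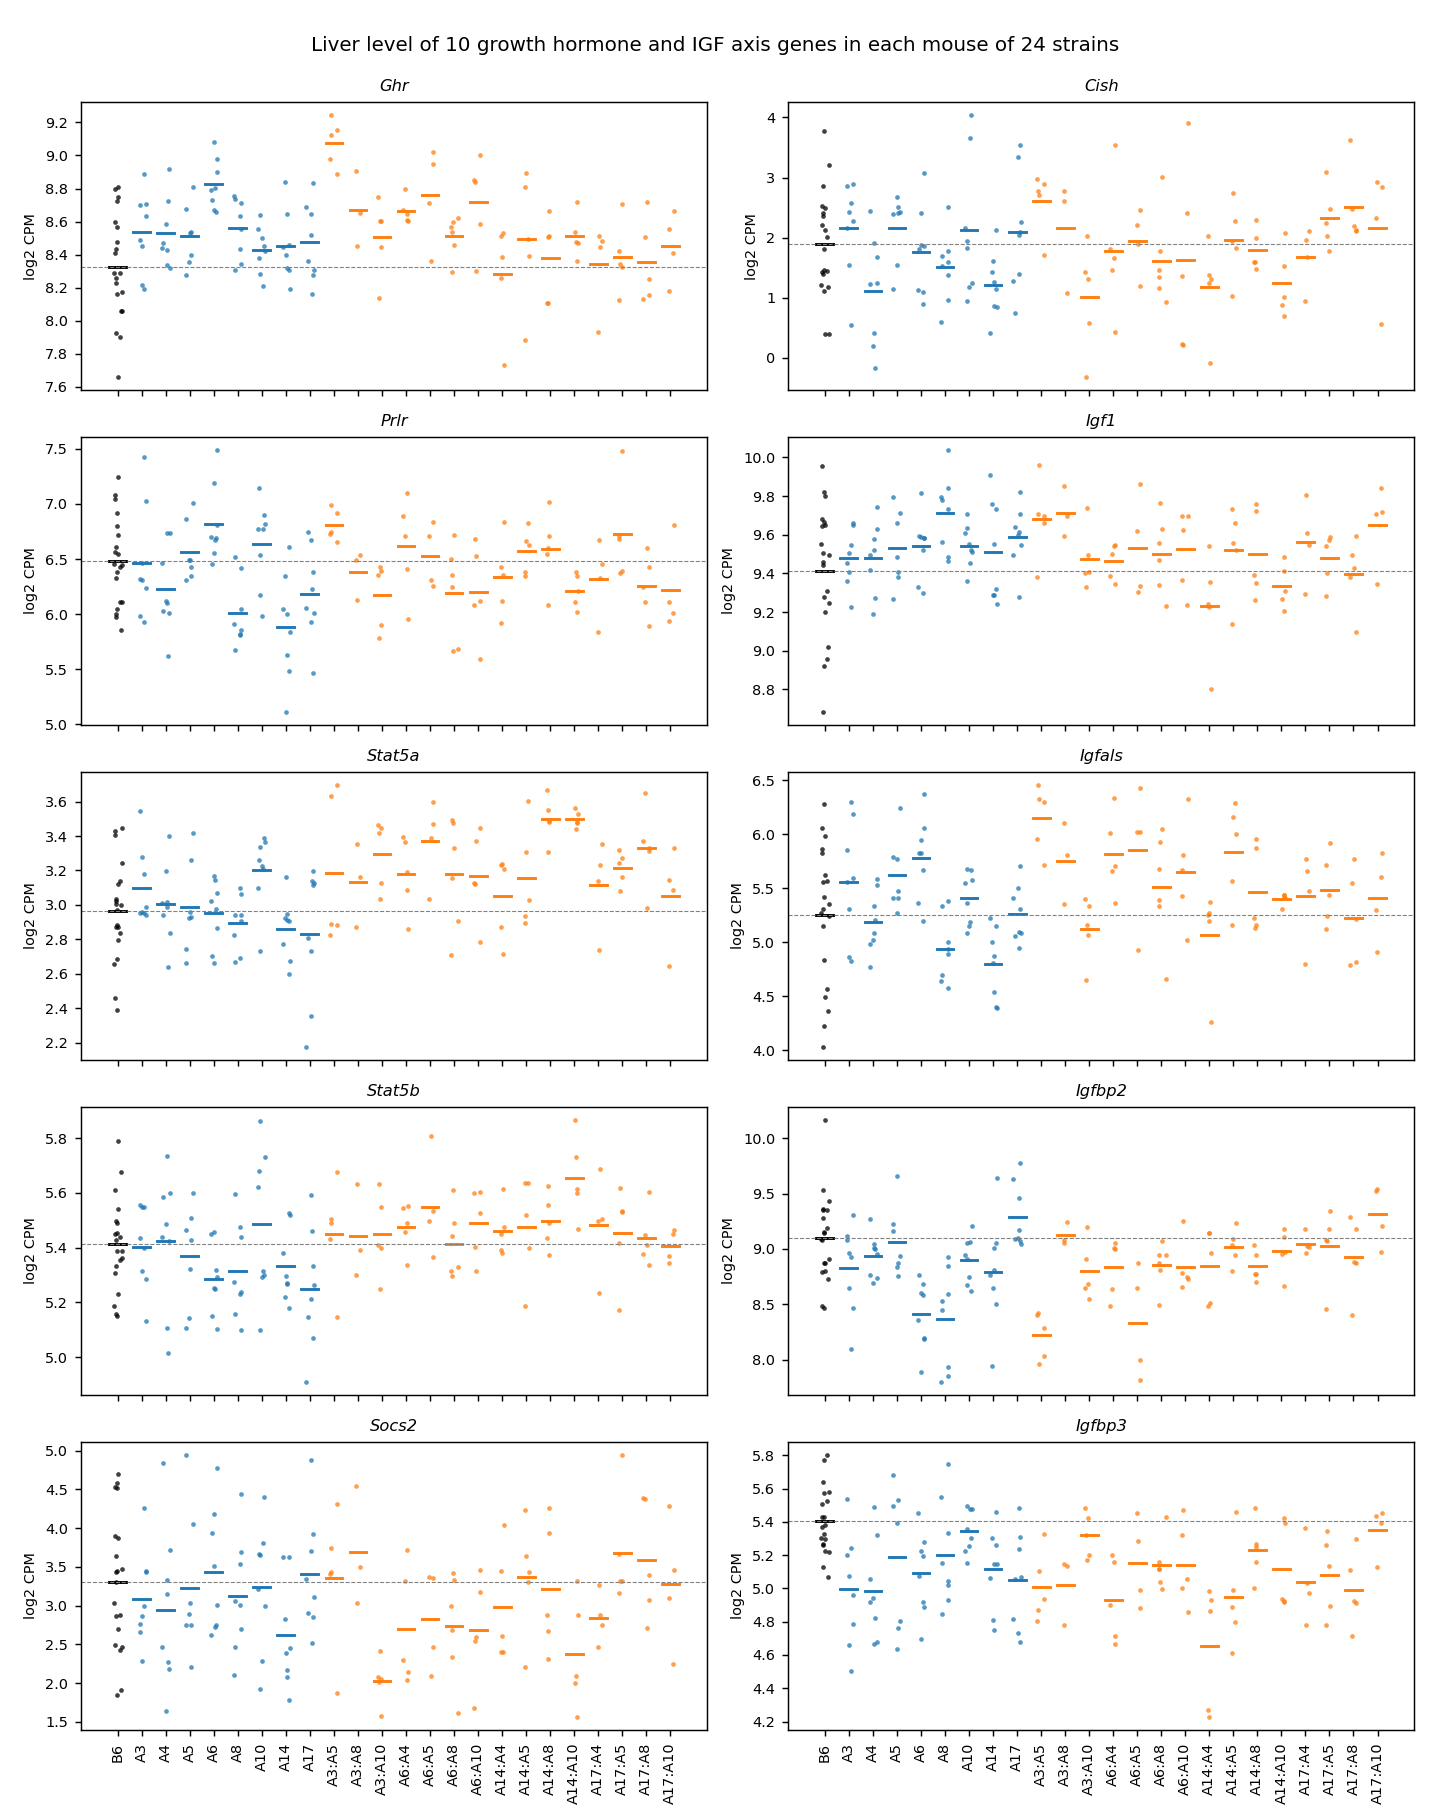
Level of each of the 10 genes (log2 CPM, y axis, a separate scale in each panel) in every mouse of the 24 strains (x axis). Points are mice, horizontal bars are strain means, B6 is black, single CSSs are blue, double CSSs are orange, and the dashed line is the B6 mean. Most Ghr strain means lie above B6 and all Igfbp3 strain means lie below it.

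The strains held different levels of most members. In the joint test of all 23 strain coefficients, 8 of the 10 members passed (an adjusted p under 0.05 in the quasi-likelihood test of edgeR, adjusted by Benjamini-Hochberg), where 51.4% of all genes did. The exceptions were Stat5b (edgeR adjusted p = 0.311) and Socs2 (edgeR adjusted p = 0.0506). The share of the variance of log2 CPM that lay between strains was 46.0% for Igfbp2, 38.1% for Ghr, 37.7% for Igfals, 36.3% for Stat5a, 34.1% for Igfbp3 and 34.0% for Prlr. It was 22.97% for Cish, 22.05% for Stat5b, 21.1% for Socs2 and 20.6% for Igf1, and the median gene had 25.9%, so that 6 members lay above the median gene and 4 below it.

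In the order of strain means, B6 stood near an end for several members. For Igfbp3, B6 was the highest of the 24 strains with 42.7 ± 6.08 CPM (mean ± SD, n = 20), and the lowest was A14:A4 with 25.7 ± 6.34 (n = 5). For Ghr, B6 ranked 3 from the lowest with 329 ± 71.9 CPM, and the means ran from 317.6 ± 64.0 in A14:A4 to 542 ± 53.3 in A3:A5 (n = 5). Without the A14:A4 mouse with few Y-linked counts, Ghr in A14:A4 was 344 ± 29.8 CPM (n = 4), the lowest strain was A17:A4 at 328.8 and B6 ranked 2 from the lowest, while Igfbp3 was still lowest in A14:A4 at 24.6. For Igfbp2, only 2 strain means stood above B6 with 570.98 ± 175 CPM, and the means ran from 300 ± 43.0 in A3:A5 to 645 ± 119 in A17:A10 (n = 4).

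Igf1 ran from 610 CPM in A14:A4 to 846 in A8 with B6 ranked 4 from the lowest at 699 ± 153.9, a span of 1.39-fold, and without the same mouse from 647.4 CPM in A14:A10, a span of 1.31-fold. Igfals ran from 28.4 CPM in A14 to 72.1 in A3:A5, and Prlr from 61.7 in A14 to 116.03 in A6. Socs2 and Cish were both lowest in A3:A10, at 4.03 and 2.19 CPM, and had the widest spans of strain means, 3.57-fold and 2.86-fold. The span of Stat5b was 1.32-fold. Of the 23 pairs of neighbours in each order, between 0 and 2 had a gap larger than the smaller of both SDs. Gaps between neighbours are small because the means were sorted first, so that they do not test whether strains differ.

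The strain (B6.A3 x B6.A5)F1 stood out in level. Its 5 mice had Ghr between 473 and 607 CPM, all above the highest B6 mouse (449), and Igfbp2 between 248 and 342 CPM, all below the lowest B6 mouse (355). Out of 230 combinations of a member and a strain, 3 had no overlap with B6, where 0.208% of all combinations over all genes had none. The third was Igfbp3 in A14:A4, with 18.6, 19.1, 29.1, 30.4 and 31.6 CPM against 33.5 to 55.8 in B6, and the mouse with few Y-linked counts (30.4) was not the lowest of them. Within A3:A5, 2 of the 10 members did not overlap B6, where 0.549% of all genes did not, and within A14:A4 it was 1 of the 10 against 0.324%.

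In the fit, Ghr in A3:A5 was 0.58 ± 0.08 (log2, SE) above B6, and the sum of its A3 and A5 main effects was 0.45. The departure from that sum was 0.13 ± 0.12, which did not pass (edgeR adjusted p = 0.9995), and no gene of the table passed in this interaction. Igfbp2 in A3:A5 was 0.92 below B6 in the fit (log2 difference of -0.92 ± 0.17), with a departure of -0.53 ± 0.23 that did not pass either (edgeR unadjusted p = 0.0217). Igfals, at 52.5 to 87.7 CPM in A3:A5, was 0.49 ± 0.15 above B6 on the log2 scale.

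The single CSSs were compared with B6 to ask which chromosomes carry alleles that act on the axis. Of 80 main effects on the members (10 genes in 8 strains), 18 were called at an adjusted p under 0.05, 8 higher and 10 lower than B6. They were 22.5% of the tests, where 11.1% of the main effects on all genes were called. All 8 comparisons share the same 20 B6 mice, and the levels of the single CSS overlapped those of B6 in all 18.

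**Figure D2:**
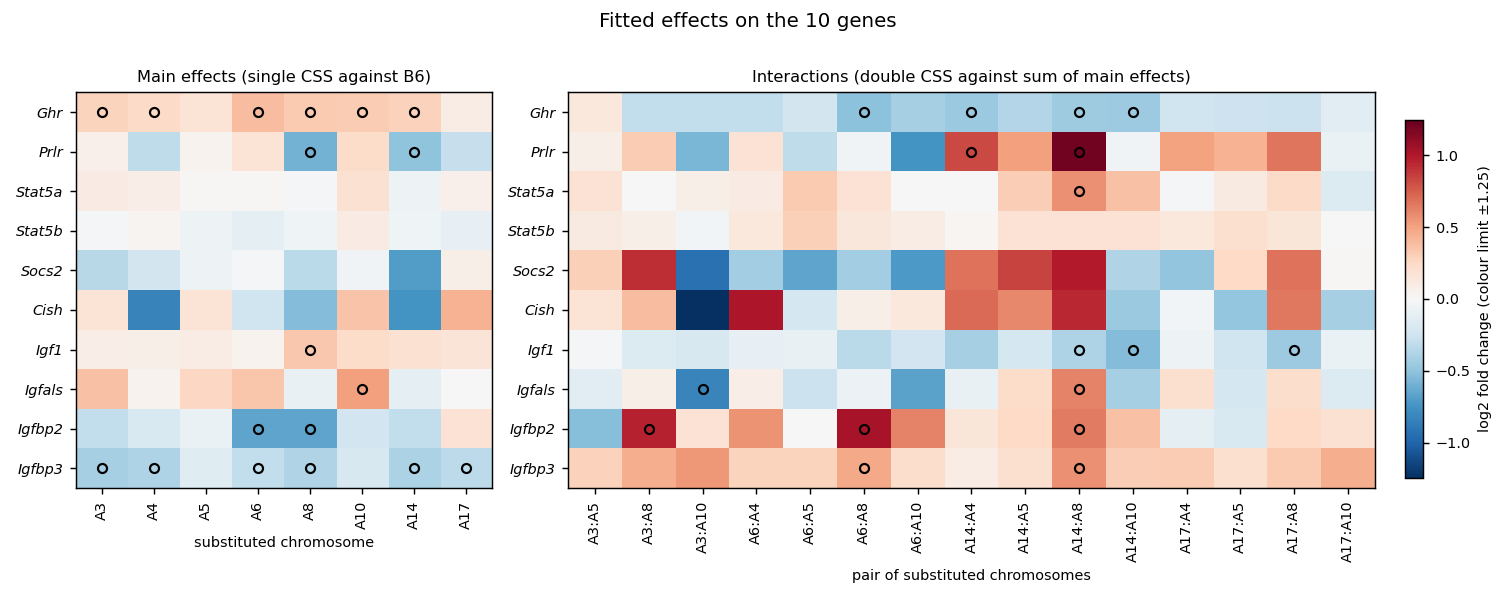
Fitted log2 fold changes of the 10 genes (rows). The left panel has the 8 main effects (single CSS against B6) and the right panel the 15 interactions (double CSS against the 2 main effects added together). Red is higher and blue is lower, and circles mark effects with an adjusted p under 0.05. Ghr is red and Igfbp3 blue across the left panel, and in the right panel 7 of the 17 circles stand in the A14:A8 column.

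Ghr, the growth hormone receptor, was higher than B6 in 6 of the 8 single CSSs. Its level in B6 ran from 201.95 to 449 CPM (median 313), and in A6 from 404 to 541 CPM (median 445), so that the 8 A6 mice overlapped only the upper B6 mice. The fitted log2 fold change in A6 was 0.38 ± 0.07 (SE, edgeR adjusted p = 0.000198), a 1.31-fold higher level. In A8 it was 0.33 ± 0.08 (edgeR adjusted p = 0.000715), with 316 to 432 CPM. In A3, A4, A10 and A14 the log2 fold changes were 0.28, 0.24, 0.32 and 0.29 with edgeR adjusted p between 0.00216 and 0.0186. In A5 it was 0.17 and in A17 0.10, and these did not pass. The background share of genes called higher was 1.94% in A3, 7.60% in A4, 4.30% in A6, 12.9% in A8, 3.66% in A10 and 9.98% in A14.

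The fitted values adjust for 5 surrogate variables, which are hidden factors estimated from all genes, and the plain levels differed less in some strains. Mean Ghr was 346 ± 33.3 CPM in A10 (n = 8) and 353 ± 53.1 in A14 (n = 8), 1.05 and 1.07 times the B6 mean. Without surrogate variables Ghr was called in A6 alone, with log2 fold changes of 0.47 in A6 and between 0.07 and 0.21 in the other 5, and with 10 surrogate variables the calls in A4, A8 and A14 were lost.

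Prlr, the prolactin receptor, which also signals through JAK2 and STAT5, was lower in 2 single CSSs. In B6 it ran from 57.7 to 152 CPM (median 87.1), in A8 from 51.1 to 91.3 (median 58.8) and in A14 from 34.4 to 97.2 (median 60.4). Most mice of both strains lay in the lower part of the B6 range, and the ranges overlapped. The log2 fold changes were -0.59 ± 0.16 in A8 (edgeR adjusted p = 0.00318) and -0.50 ± 0.15 in A14 (edgeR adjusted p = 0.0103). The background share of genes called lower was 16.7% in A8 and 12.6% in A14, the 2 strains in which most genes were called. Ghr and Prlr therefore had fitted changes of opposite sign in the same 2 strains.

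Stat5a and Stat5b, which carry the signal to the nucleus, and Socs2 and Cish, which inhibit it, had no called main effect. For Stat5b the log2 fold changes lay between -0.12 and 0.10 with standard errors of 0.07 to 0.08, and for Stat5a between -0.06 and 0.19 with 0.09 to 0.11. The largest for Socs2 was -0.70 ± 0.35 in A14 (edgeR adjusted p = 0.142) and for Cish -0.84 ± 0.38 in A4 (edgeR adjusted p = 0.128), and at this spread a difference of that size could not be told from none. At an unadjusted p under 0.05 the count was 0 of 8 for each STAT5 gene and 1 of 8 for each inhibitor, and with DESeq2's Wald test none of the 4 genes was called. Socs2 in A14 passed under 2 other alternatives, with log2 fold changes of -1.26 with 10 surrogate variables (edgeR adjusted p = 0.0259) and -1.02 after a filter on low counts (edgeR adjusted p = 0.0282).

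Igf1, which encodes the hormone itself, was higher in A8. It ran from 410.7 to 992 CPM in B6 (median 712) and from 705 to 1052 in A8 (median 866), where 846 ± 116.5 was the highest mean of the 24 strains. The log2 fold change was 0.33 ± 0.09 (edgeR adjusted p = 0.00335), and the call held in all 8 alternatives. The other 7 were between 0.04 and 0.23. Chromosome 10 holds Igf1 itself, and in A10 the log2 fold change was 0.23 ± 0.09 (edgeR adjusted p = 0.0679), which did not pass, and with 10 surrogate variables it was 0.22 and passed (edgeR adjusted p = 0.0481).

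Igfals, the acid labile subunit, was called higher in A10, with a log2 fold change of 0.51 ± 0.14 (edgeR adjusted p = 0.0123). The levels did not show this difference, since A10 had 33.7 to 51.2 CPM (mean 42.8 ± 7.10) and B6 16.2 to 77.6 (mean 41.5 ± 17.1). Without surrogate variables the log2 fold change was 0.05 (edgeR adjusted p = 0.903), so that the call rests on that adjustment. In A14, which had the lowest mean (28.4 ± 6.33 CPM), the log2 fold change was -0.12 (edgeR adjusted p = 0.585), and without surrogate variables it was -0.54 and passed (edgeR adjusted p = 0.0194). In A17, whose chromosome holds Igfals, the log2 fold change was -0.00 ± 0.13.

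Igfbp2, a binding protein secreted by hepatocytes, was lower in A6 and A8. It ran from 355 to 1150 CPM in B6 (median 555), from 236 to 435 in A6 (median 356) and from 222 to 488 in A8 (median 359). A part of the mice of each of these strains lay below every B6 mouse. The log2 fold changes were -0.66 ± 0.14 in A6 (edgeR adjusted p = 0.00116) and -0.66 ± 0.15 in A8 (edgeR adjusted p = 0.000299), which are 0.634-fold and 0.631-fold levels. The background share of genes called lower in A6 was 3.79%.

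Igfbp3, the main carrier of IGF-1 in serum, was lower in 6 of the 8 single CSSs, and the fitted value lay below 0 in all 8. In B6 it ran from 33.5 to 55.8 CPM (median 41.4), in A3 from 22.6 to 46.4 (median 32.3) and in A4 from 25.3 to 44.8 (median 30.4). The middle mouse of A3 and of A4 thus lay below the lowest B6 mouse. The log2 fold changes were -0.42 ± 0.09 in A3 (edgeR adjusted p = 0.00483) and -0.38 ± 0.10 in A4 (edgeR adjusted p = 0.00429). In A6, A8, A14 and A17 they were -0.31, -0.37, -0.40 and -0.33 with edgeR adjusted p between 0.00110 and 0.0409. The background share of genes called lower was 1.76% in A3, 5.88% in A4 and 1.96% in A17. With 10 surrogate variables the calls in A4, A6, A8, A14 and A17 were lost, and without any those in A3 and A8.

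Igfbp3 is known to be made in liver by cells other than hepatocytes, and its level was set beside their markers. Within strains its Pearson r was above 0 with 5 of 5 stellate cell markers (0.11 to 0.40), 5 of 5 Kupffer cell markers (0.18 to 0.35) and 5 of 6 sinusoidal endothelial markers (-0.22 to 0.59). It was also above 0 with 3 of 3 red blood cell markers (0.13 to 0.17) and 2 of 2 lymphocyte markers (0.16 to 0.22). With bile duct cell markers it was 2 of 3 (-0.15 to 0.29) and with hepatocyte markers 3 of 7 (-0.31 to 0.16). The summed endothelial markers were highest in A14, at 368 CPM against 335 in B6, and Igfbp3 was lower in A14 than in B6. The summed stellate markers were highest in A3:A8, at 322 CPM against 299.7 in B6, where Igfbp3 had a mean of 32.6 CPM against 42.7. Every other strain had a lower Igfbp3 mean than B6, so that the direction of both contrasts was fixed beforehand and they cannot bear on this question. The part of these cells in the Igfbp3 differences was not tested.

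By strain, 5 members were called in A8, where 29.6% of all genes were called. In A14 it was 3 members against 22.5%, in A6 3 against 8.09%, in A3 2 against 3.70%, in A4 2 against 13.5% and in A10 2 against 6.64%. In A17 it was 1 member against 3.67%, and in A5 none against 0.768%, with 2 members at an unadjusted p under 0.05 in edgeR and none called by DESeq2. A8 was thus the strain with the most members called, and also the one with the highest share of all genes. Hepatocyte markers had summed means of 78906 CPM in A8 and 92161 in A14 against 120465 in B6, and 5 and 4 of the 7 were called lower. Their part in the member calls was not tested.

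The double CSSs were compared with the sum of both single CSSs to ask whether the chromosomes act independently on the axis. Of 150 interactions on the members (10 genes in 15 crosses), 17 were called, 9 higher and 8 lower than the sum. They were 11.3% of the tests, where 5.96% of the interactions on all genes were called. In the joint test of all 15 interactions, 5 of the 10 members passed (Ghr, Prlr, Igfals, Igfbp2 and Igfbp3, edgeR adjusted p between 0.000413 and 0.0436), where 27.4% of all genes did.

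In 15 of the 17 called interactions the double CSS was nearer to B6 than the added main effects were. This direction is not particular to the members. The study classed the large majority of its interactions on all genes as antagonistic, with a smaller difference from B6 than additivity predicts. The share over all genes was not computed here. The exceptions were Stat5a and Igfals, both in A14:A8, where the double CSS lay farther from B6 than the sum. Because the same main effects enter both the sum and the interaction, an error in a main effect moves both, and the 17 are not independent of each other. All 17 double CSSs overlapped B6 in level.

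**Figure D3:**
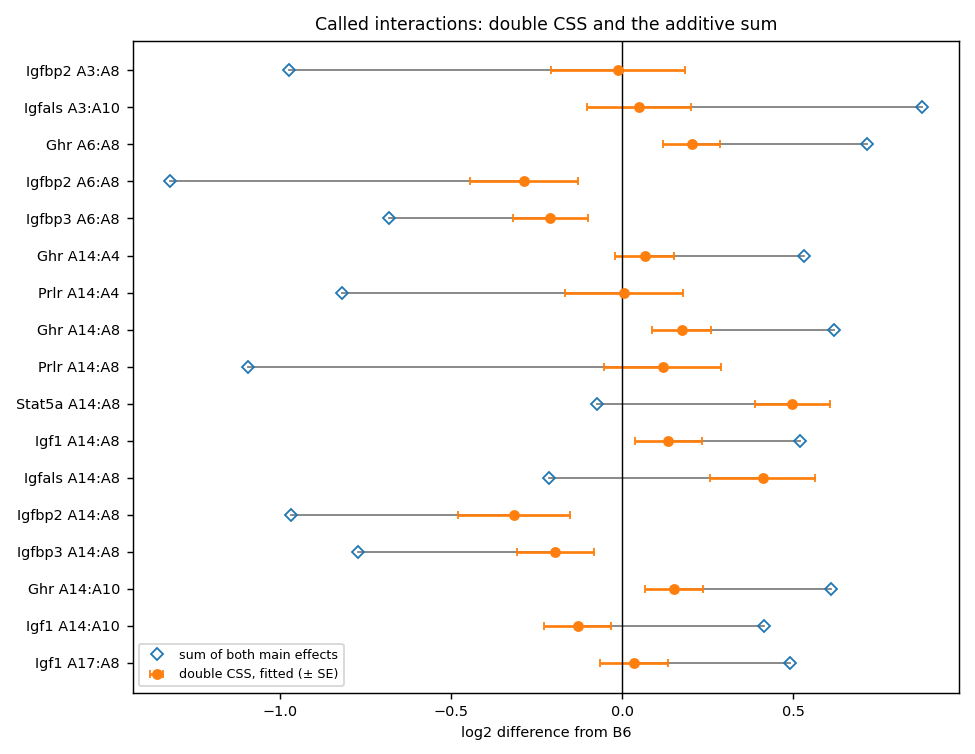
The 17 called interactions, with the log2 difference from B6 on the x axis. Open blue diamonds are the sums of both main effects, orange points are the fitted double CSSs with their SE, and the vertical line is B6. For Prlr in A14:A8 the sum lies at -1.09 and the double CSS at 0.12.

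For Ghr the called interactions were all below the sum. In A6:A8, with 314 to 394.3 CPM in 6 mice (median 375.3), the double CSS lay below the A6 mice (404 to 541) without overlap. The added main effects came to 0.71 log2 units, the fitted double CSS 0.20, and the interaction -0.51 ± 0.12 (edgeR adjusted p = 0.000767). In A14:A8 the 5 mice had 276, 276, 364, 365 and 405 CPM, and in A14:A10 they had 329, 355, 356, 372 and 420.6. These interactions were -0.45 ± 0.13 (edgeR adjusted p = 0.00433) and -0.46 ± 0.13 (edgeR adjusted p = 0.0320). Both crosses lay within the B6 range of 201.95 to 449 CPM, with a fitted difference from B6 of 0.17 and 0.15.

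In A14:A4 the Ghr levels were 213, 306, 335, 365 and 370 CPM, the lowest being the mouse with few Y-linked counts. The interaction was -0.47 ± 0.13 (edgeR adjusted p = 0.0230), and without that mouse -0.41 (edgeR adjusted p = 0.0826). For Ghr in A14:A10, leaving out replicate 2 or replicate 5 gave edgeR adjusted p of 0.0543 and 0.0651. Without surrogate variables Ghr was called in A6:A8 alone (-0.52), and the value in A14:A10 was -0.02, in A14:A8 -0.27 and in A14:A4 -0.33. With 10 surrogate variables all 4 Ghr calls were lost, at values between -0.40 and -0.23 and edgeR adjusted p between 0.0752 and 0.315. The joint interaction test for Ghr had an edgeR adjusted p of 0.00195.

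Prlr had the largest called interaction of the 10 genes. In A14:A8 the 5 mice had 67.6, 93.5, 96.7, 105 and 129 CPM, against 34.4 to 97.2 in A14 and 51.1 to 91.3 in A8. Their mean of 98.4 ± 22.3 CPM was close to the B6 mean of 92.7 ± 26.4, while A8 had 65.5 ± 14.8 and A14 61.7 ± 20.2. The added main effects came to -1.09 log2 units and the fitted double CSS 0.12, so that the interaction was 1.21 ± 0.26 (edgeR adjusted p = 7.05e-05), and the call held in all 8 alternatives and without any 1 of the 5 mice. In A14:A4 the Prlr levels were 60.6, 69.5, 81.9, 86.0 and 114 CPM, the highest being the mouse with few Y-linked counts. The interaction there was 0.82 ± 0.26 (edgeR adjusted p = 0.0489), and without that mouse 0.55 (edgeR adjusted p = 0.246).

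Stat5a was called in A14:A8, with neither single CSS called, and without surrogate variables also in A17:A8 (0.55, edgeR adjusted p = 0.0145, against 0.24 with them). The 5 mice had 9.79, 11.05, 11.08, 11.6 and 12.6 CPM, against 5.12 to 10.8 in B6, and their mean of 11.2 ± 1.02 CPM was the highest of the 24 strains. Each of the 8 A14 mice (at most 8.83 CPM) lay below all 5. The interaction was 0.57 ± 0.17 (edgeR adjusted p = 0.00554), with main effects of -0.06 in A14 and -0.01 in A8. The fitted double CSS was 0.50 ± 0.11 above B6 (log2). With 10 surrogate variables the interaction was 0.34 (edgeR adjusted p = 0.281). The joint interaction test over all 15 crosses did not pass for Stat5a (edgeR adjusted p = 0.0912). Stat5b, Socs2 and Cish had no called interaction, and with standard errors of 0.55 to 0.61 log2 units for Socs2 and 0.57 to 0.68 for Cish, even departures such as -1.47 for Cish in A3:A10 did not pass. At an unadjusted p under 0.05 they numbered 1 of 15 for Stat5b, 0 of 15 for Socs2 and 1 of 15 for Cish, and DESeq2's Wald test called none. Socs2 in A14:A8 had an interaction of 0.99 (edgeR adjusted p = 0.187) and passed under 2 alternatives, at 2.22 with 10 surrogate variables and 1.59 after the filter on low counts.

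Igf1 had 3 called interactions, all below the sum. In A14:A10 the 5 mice had 590, 617, 633, 681 and 716 CPM, within the B6 range of 410.7 to 992. The main effects of 0.19 and 0.23 summed to 0.41 and the double CSS lay at -0.13, which gave an interaction of -0.54 ± 0.15 (edgeR adjusted p = 0.0268). In A17:A8, with 548.2, 667, 690, 721 and 771 CPM, it was -0.46 ± 0.15 (edgeR adjusted p = 0.0347). In A14:A8, with 614.5 to 867 CPM (median 672.1), it was -0.38 ± 0.15 (edgeR adjusted p = 0.0371). Every one of the 3 lost its call when some single mouse was left out, with edgeR adjusted p rising to 0.0578, 0.104 and 0.0791. With 10 surrogate variables all 3 were lost at values between -0.52 and -0.41, and without any those in A14:A10 (-0.29) and A14:A8 (-0.29). The joint interaction test for Igf1 did not pass (edgeR adjusted p = 0.0672).

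Igfals went in both directions. In A14:A8 the 5 mice fell into a group at 34.9, 35.6 and 37.2 CPM and a pair at 58.6 and 62.0, against 20.9 to 37.3 in A14 and 23.8 to 41.6 in A8. The interaction was 0.62 ± 0.23 (edgeR adjusted p = 0.0295), and without replicate 4 or replicate 5, the pair of high mice, the edgeR adjusted p was 0.0649 and 0.0681. Without surrogate variables the value was 1.11 (edgeR adjusted p = 0.0013), and without the A14:A4 mouse with few Y-linked counts 0.55 (edgeR adjusted p = 0.0631). In A3:A10 the levels were 24.9, 33.5, 35.5, 40.2 and 42.1 CPM and the interaction was -0.83 ± 0.22 (edgeR adjusted p = 0.0301). That value includes the A10 main effect of 0.51 that the levels did not show, and without surrogate variables it was -0.55 (edgeR adjusted p = 0.391). Leaving out single A3:A10 mice gave edgeR adjusted p of up to 0.0763.

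Igfbp2 had 3 called interactions, all above the sum. In A6:A8 the 6 mice had 361.1 to 539 CPM (median 481), with the single CSSs at means of 346 ± 69.4 (A6) and 344 ± 103.2 (A8) and B6 at 570.98 ± 175. The added main effects came to -1.32 log2 units, the double CSS -0.29 and the interaction 1.03 ± 0.23 (edgeR adjusted p = 0.000258), which held without any 1 of the 6 mice. In A3:A8 the 3 mice had 530, 540 and 605 CPM, all above the 8 A8 mice (222 to 488), and the interaction was 0.96 ± 0.26 (edgeR adjusted p = 0.0116). Without the third of these mice it was 0.86 (edgeR adjusted p = 0.0941). In A14:A8, with 416, 437.1, 437.6, 494 and 524 CPM, it was 0.65 ± 0.24 (edgeR adjusted p = 0.0244). With 10 surrogate variables the 3 values were 0.64, 0.73 and 0.34 and none passed.

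Igfbp3 had a fitted interaction above 0 in all 15 crosses, of which 2 were called. In A14:A8 the 5 mice had 32.01, 35.6, 38.0, 38.4 and 44.6 CPM, the sum was -0.77 log2 units, and the interaction was 0.58 ± 0.16 (edgeR adjusted p = 0.00359). In A6:A8 the 6 mice had 31.8 to 42.9 CPM (median 34.6), and the interaction was 0.47 ± 0.16 (edgeR adjusted p = 0.0180). Without replicate 4, the highest A6:A8 mouse, it was 0.41 (edgeR adjusted p = 0.0513). Without surrogate variables the values were 0.30 and 0.23 and with 10 they were 0.28 and 0.13, and none of these passed. Because all 15 crosses share B6 and the single CSSs, the common sign is not 15 separate results.

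**Figure D4:**
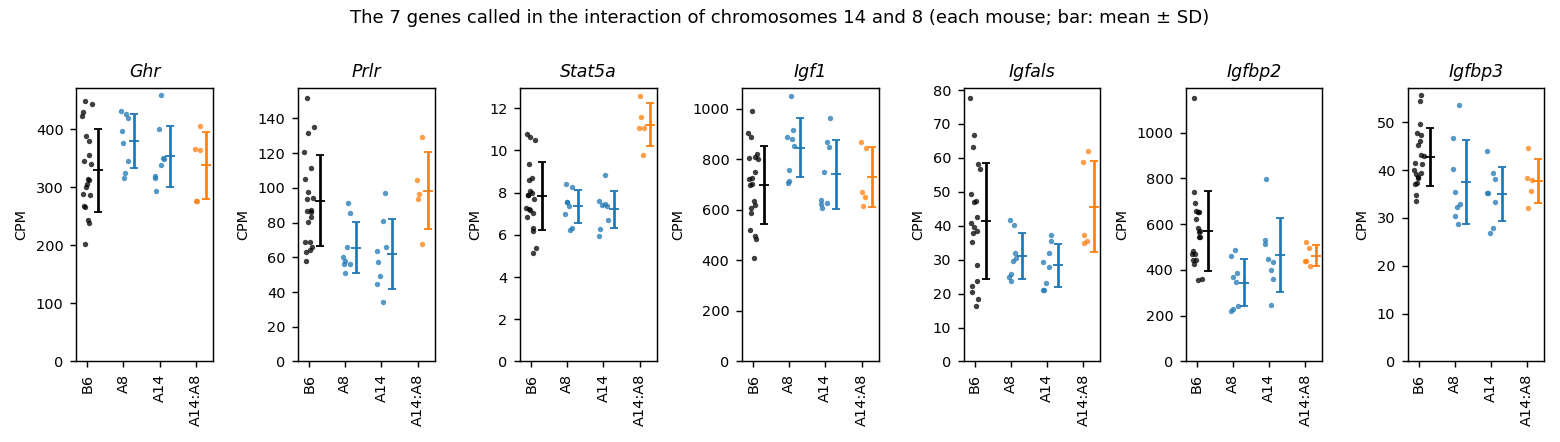
Level (CPM, y axis from 0) of the 7 genes called in the interaction of chromosomes 14 and 8, in B6, A8, A14 and the double CSS A14:A8. Points are mice, and the bars beside them give the mean ± SD. The Prlr mean of the double CSS, 98.4 CPM, stands near the B6 mean of 92.7, and Stat5a is higher in the double CSS than in all mice of A8 and A14.

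By cross, 7 of the 10 members were called in A14:A8, where 32.4% of all genes were called, and 3 in A6:A8, where 24.8% were. In A14:A10 it was 2 members against 4.16% and in A14:A4 2 against 4.63%, which is 0 of 10 in A14:A4 without the mouse with few Y-linked counts. In A17:A8 it was 1 against 8.68%, in A3:A8 1 against 7.56% and in A3:A10 1 against 1.17%. The study itself reported fewer interactions over all genes in each of these crosses. In A17:A8 it reported none for genes outside the substituted chromosomes, and Igf1, the member called there, is such a gene. The cause of this difference was not tested. In the other 8 crosses no member was called by edgeR, where the share of all genes was 4.04% in A14:A5, 1.21% in A17:A4, 0.542% in A6:A4, 0.113% in A17:A10, 0.0527% in A6:A10 and 0% in A3:A5, A6:A5 and A17:A5, and between 0 and 4 members per cross had an unadjusted p under 0.05. DESeq2's Wald test called none in these 8 crosses either. Of the 7 hepatocyte markers 4 were above the sum in A14:A8 and 4 in A6:A8, and their part in the member calls was not tested.

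The other genes of the pathway were taken from a list of 46, of which 40 were measured. Among their 320 main effects 55 were called, 14 higher and 41 lower, which is 17.2% where all genes had 11.1%. Among their 600 interactions 51 were called, 41 higher and 10 lower, which is 8.50% where all genes had 5.96%. Over all genes, 5659 main effects were called higher and 6106 lower, and 6678 interactions higher and 5201 lower. The effects share B6 and the single CSSs, so that the pathway calls are not independent of each other. A8 and A14 had 16 called main effects each, where 29.6% and 22.5% of all genes were called, A6:A8 had 15 called interactions against 24.8% and A14:A8 had 14 against 32.4%.

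Cux2, a repressor that is female-biased in liver, had the largest changes of the list, at a low level. It was lower in A8 (log2 fold change of -1.77) and A4 (-1.51), with 0.749 ± 0.533 and 0.797 ± 0.715 CPM against 2.25 ± 1.68 in B6. Its interactions were 3.48 in A14:A4 and 2.75 in A14:A8. The A14:A4 value was 1.93 (edgeR adjusted p = 0.167) without the mouse with few Y-linked counts.

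Igfbp1, the binding protein induced by fasting, was lower in A6 (log2 fold change of -1.30, edgeR adjusted p = 0.00977) and A8 (-1.40, edgeR adjusted p = 0.00234). Its mean was 104 ± 35.6 CPM in A6, 120 ± 51.6 in A8 and 301 ± 190.8 in B6. In A6:A8 it was 185 ± 91.9 CPM with an interaction of 2.26 (edgeR adjusted p = 0.00099). Igfbp2 was also lower in A6 and A8 and above the sum in A6:A8, and beyond these it was called in A3:A8 and A14:A8, where Igfbp1 was not.

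Stat3, the transcription factor of IL-6 signalling and a neighbour of Stat5a, was lower in 3 single CSSs and above the sum in 6 crosses. It was 59.1 ± 6.05 CPM in A8 against 95.3 ± 19.98 in B6 (log2 fold change of -0.57, edgeR adjusted p = 2.54e-07), and its interaction was 0.79 in A6:A8. Hnf4a, a transcription factor that maintains hepatocyte identity, was lower in 5 single CSSs and above the sum in 6 crosses, for example 0.48 in A3:A10 and 0.64 in A14:A4, which was 0.64 also without the mouse with few Y-linked counts (edgeR adjusted p = 0.00393). Hnf4a is also on the list of hepatocyte markers. Igf2r, the receptor that clears IGF-2, and Klb, the co-receptor of FGF21, had interactions of 0.83 and 0.78 in A14:A8. Grb10, an adaptor that dampens IGF-1 and insulin receptors, had 3 called interactions, the largest 0.69 in A17:A8. Jak2, the kinase of both receptors, which was named after its values were seen, was higher in 4 single CSSs (0.15 to 0.28) and below the sum in 3 crosses.

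Body weight was set against the members among mice of the same strain. With strain in the model, 3 of the 10 members rose with weight and none fell, where 5.84% of all genes were called higher and 5.31% lower. Ghr rose by 0.09 ± 0.02 log2 units per gram (edgeR adjusted p = 1.94e-05), Igfals by 0.13 ± 0.03 (edgeR adjusted p = 0.000948) and Igf1 by 0.05 ± 0.01 (edgeR adjusted p = 0.00839). Igfbp2 had a slope of -0.05 ± 0.02, which did not pass (edgeR adjusted p = 0.129), and Prlr one of 0.00 ± 0.03.

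Over all mice centred on their strain means, log2 CPM of Ghr had a Pearson r of 0.444 with body weight and a Spearman rho of 0.424 (permutation p = 1e-05 for both, the smallest that 100000 permutations within strains can give, and 0.0001 adjusted over the 10 members). For Igfals r was 0.358 and rho 0.325 (adjusted permutation p = 0.0003 and 0.0012), and for Igf1 0.306 and 0.276 (adjusted permutation p = 0.00163 and 0.00583). Without the 2 mice farthest from the median weight r was 0.447, 0.375 and 0.308. The relation was not equally strong in all strains. In B6 alone r was 0.769 for Ghr, 0.541 for Igfals and 0.583 for Igf1. Over the 10 strains with at least 6 mice, r for Ghr ran from -0.671 to 0.900 and was above 0 in 8. For Igfals it ran from -0.711 to 0.882 and was above 0 in only 5, and for Igf1 from -0.443 to 0.583 and above 0 in 8.

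**Figure D5:**
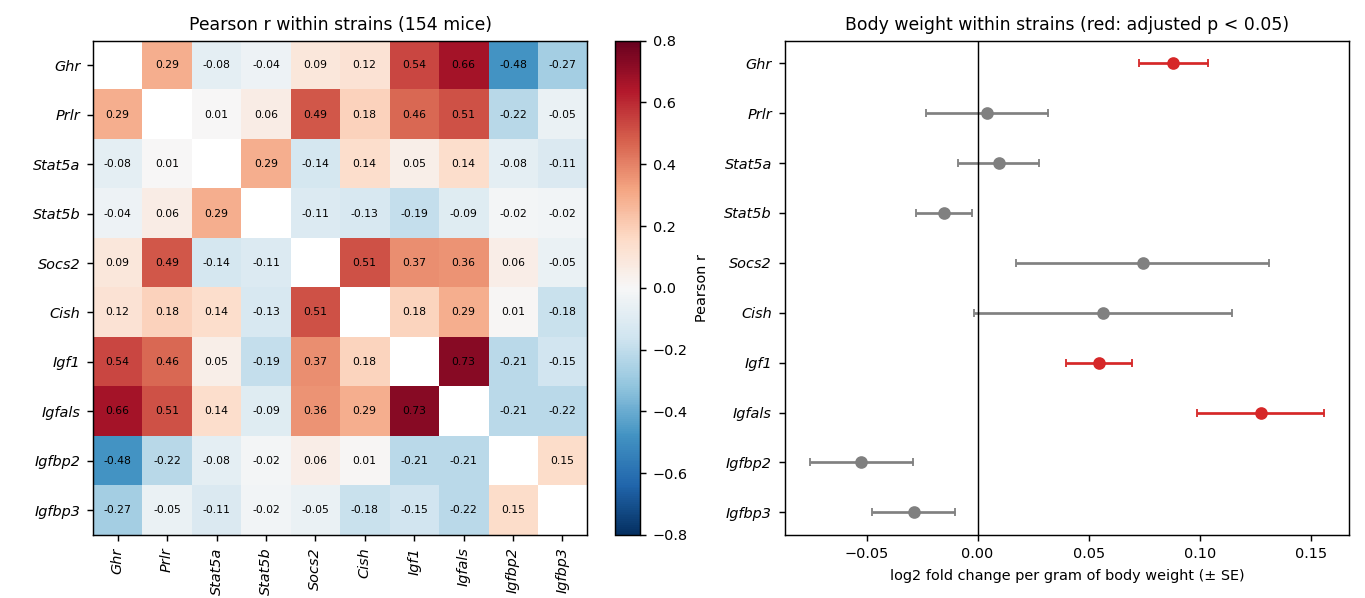
Left, Pearson r between the 10 genes over all mice, from log2 CPM centred on strain means. Right, log2 fold change per gram of body weight with its SE, from the fit with strain as a term, with genes that passed in red. Ghr, Igf1 and Igfals are high with each other (0.54 to 0.73) and are the 3 red points, and Igfbp2 is opposed to Ghr (-0.48).

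Members also varied together among mice of a strain. Of 45 pairs, 16 had a Benjamini-Hochberg adjusted permutation p under 0.05 for Pearson r, 12 positive and 4 negative, and 5 had an absolute r of at least 0.5. Igf1 and Igfals had the highest r, 0.726 (rho 0.654), and it was above 0 in all 10 strains with at least 6 mice. Ghr with Igfals had 0.665 (rho 0.617), Ghr with Igf1 0.537 (rho 0.461) and Prlr with Igfals 0.509 (rho 0.511). In the same 10 strains r was above 0 in 9 for Ghr with Igfals, in only 6 for Ghr with Igf1 and in all 10 for Prlr with Igfals. With surrogate variables removed, r was 0.419 for Ghr with Igfals, 0.376 for Ghr with Igf1 and 0.441 for Prlr with Igfals. The feedback inhibitors Socs2 and Cish had 0.507 (rho 0.497). All 5 had a permutation p of 1e-05, the smallest possible, and 5.63e-05 adjusted over the 45 pairs. Without the 2 mice farthest from the median of the first gene, r lay between 0.479 and 0.691 for these 5. Background r was taken over 9587 genes with a mean log2 CPM of at least 2. Its 95th percentile was 0.420 for Ghr, 0.384 for Igfals, 0.299 for Igf1 and 0.249 for Prlr. The share of pairs over all genes with an absolute r of at least 0.5 or an adjusted p under 0.05 was not computed.

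The strongest negative pair was Ghr with Igfbp2, at r = -0.478 (rho -0.444, permutation p = 1e-05, adjusted 5.63e-05). In B6 alone it was -0.723. Ghr with Igfbp3 had -0.275 (adjusted permutation p = 0.0053). The STAT5 genes were weakly related to the rest, with r between -0.19 and 0.14 for each pair of Stat5a or Stat5b with one of the other 8 members. Stat5a and Stat5b, whose transcripts have some stretches in common, had 0.288 with each other (rho 0.259, adjusted permutation p = 0.00318).

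The genes whose level within strains was most like each member were taken from 9587 genes with a mean log2 CPM of at least 2, as a description. For Ghr they were Car3 (r = 0.848), Akr1c6 (0.802) and Nadk2 (0.779), over all mice. Igf1 and Igfals shared Keg1 as their closest gene (0.674 and 0.759), and Hsd3b5, a male-biased steroid enzyme, was among the closest genes of Igfals (0.729). For Igfbp3 they were Sparc (0.739), Col14a1 (0.655) and Postn (0.642), which encode proteins of the extracellular matrix. Cish was closest to the pseudogenes Gm21049 (0.810), Gm7652 (0.674) and Gm35570 (0.670), which lie near each other on chromosome 5. Socs2 was closest to Wsb1 (0.582), Igfbp2 to Slc27a2 (0.553), Prlr to Cers6 (0.641), Stat5a to Plekha6 (0.508) and Stat5b to Nedd4l (0.535).

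Genes known to follow the male pulse pattern of growth hormone were compared in the same way. For Ghr, Igf1 and Igfals r was above 0 with all 10 male-biased genes listed, with medians of 0.482, 0.421 and 0.448. For Igfbp3 r was below 0 with all 10 (median -0.208), and for Prlr with 9 of 10 (median -0.129). Stat5b was above 0 with 1 of 10 (median -0.164), Igfbp2 with 2 (median -0.084), Stat5a with 4 and Socs2 and Cish with 7 each. Of 12 female-biased genes 7 were measured, and r was above 0 with 6 of 7 for Prlr (median 0.148) and with 1 of 7 for Ghr (median -0.338). For Stat5b it was also 6 of 7 (median 0.104), for Igfbp3 5 of 7 (median 0.191) and for the others 1 to 3 of 7. Over 9587 genes the 5th to 95th percentile of r was -0.382 to 0.420 for Ghr and -0.243 to 0.249 for Prlr. For Igfbp3 it was -0.239 to 0.235, for Igf1 -0.272 to 0.299 and for Igfals -0.340 to 0.384. These values come from the same libraries, which share depth and normalization, and include the A14:A4 mouse with few Y-linked counts.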

How the data were processed

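Liver RNA of 20 B6, 63 single CSS and 71 double CSS mice had been sequenced from stranded total RNA libraries. The authors aligned reads with TopHat2 to mm10, tried unmapped reads again on an A/J version of the genome, and used HTSeq to count reads in genes. The deposited table holds raw counts, filtered by the authors for low genes and not normalized. Strains came from the labels, which name the sire first, whereas the names used here put the dam first. Gene positions were from GENCODE vM21, which matched 13242 of 13289 genes.

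Counts were normalized by TMM (edgeR 4.0.16, R 4.3.3). Each gene was fitted with 8 main effects, 15 interactions and 5 surrogate variables (sva 3.50.0) and tested with the quasi-likelihood F-test; p-values were adjusted by Benjamini-Hochberg within each effect over all genes, cis and trans genes separately (threshold 0.05). Joint tests and body weight (strain in the model, weights read by mouse ID from a supplement of the study) were adjusted over all genes. CPM used TMM library sizes, and log2 CPM a prior count of 2. Correlations used 100000 two-sided permutations within strains (numpy 2.4.6). Alternatives were 0 or 10 surrogate variables, DESeq2 size factors, DESeq2's Wald test (1.42.0), a count of at least 15 in 75% of mice (11852 genes), adjustment over all genes of each effect, weight as a covariate, and leaving out each double CSS mouse. Leaving out the mouse with few Y-linked counts was added after seeing the data for the main effects, interactions, joint tests and strain means.

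On simulated data the model found 95 of 100 genes changed by 1 log2 unit in A8 and 89 of 100 changed by 1.5 in the A14:A8 interaction. It found 99 of 100 changed by 0.3 per unit of a random covariate that stood in for weight, among 13289 genes. The simulated main effect and interaction were larger than any called on the members, and no hidden factors were simulated. The recovery therefore does not give the power for the members. The members and the gene lists were chosen with earlier results of these data known. Beside the members, the genes named were the 8 pathway genes with the largest absolute log2 fold changes among those called (1 of them is not reported here), the 3 genes most correlated with each member, and the lists of sex-biased genes and cell markers.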

Additional observations from a re-analysis of the deposited data

Results flagged for a closer look

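Some mice stood far from the rest of their strain. Of 220 groups of a gene and a strain with 4 to 10 mice, 9 held a mouse beyond Dixon's 95% limit, and chance flags about 1 in 20 groups, or 11 of 220. Ghr was 244 CPM in a (B6.A17 x B6.A4)F1 mouse against 348 to 365.7 in the other 3, and Igfals was 19.1 CPM in the A14:A4 mouse with few Y-linked counts against 36.5 to 41.2. Igfals was also 39.4 CPM in an A14:A10 mouse, where the other 4 lay closely between 42.3 and 43.2. Stat5a was 6.54 CPM in an A10 mouse (others 8.45 to 10.3), and Igfbp3 was 42.9 CPM in an A6:A8 mouse (others 31.8 to 35.6). Igfbp2 was 611 CPM in an A6:A10 mouse (others 403 to 439). Among the feedback inhibitors, Socs2 was 30.8 CPM in an A17:A5 mouse (others 8.82 to 12.6), Cish was 12.2 CPM in an A17:A8 mouse (others 4.22 to 5.46) and Cish was 3.14 CPM in an A3:A5 mouse (others 6.39 to 7.76).

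The effect of a substitution differed with the second substituted chromosome in the 17 called interactions, given as log2 departures from the 2 main effects added together (edgeR's quasi-likelihood test). For Ghr they were -0.46 in A14:A10, -0.47 in A14:A4, -0.45 in A14:A8 and -0.51 in A6:A8. For Prlr they were 0.82 in A14:A4 and 1.21 in A14:A8, and for Stat5a 0.57 in A14:A8. For Igf1 they were -0.54 in A14:A10, -0.38 in A14:A8 and -0.46 in A17:A8, and for Igfals 0.62 in A14:A8 and -0.83 in A3:A10. For Igfbp2 they were 0.65 in A14:A8, 0.96 in A3:A8 and 1.03 in A6:A8, and for Igfbp3 0.58 in A14:A8 and 0.47 in A6:A8.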

How the results depend on the processing

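No call of a member changed its direction under any alternative run. The number of surrogate variables mattered most. Without any, 11 main effects and 9 interactions of the members were called in place of 18 and 17, and with 10 they were 10 and 3, with 2 of 10 members in the joint interaction test in place of 5. With 10, the other pathway genes had 18 main effects in place of 55 and 13 interactions in place of 51. With body weight as a covariate 10 interactions of the members were called. The cause of these differences was not tested. Counts stayed within 1.5 times under DESeq2's Wald test, its size factors, the count filter, the adjustment over all genes and the fit without the mouse with few Y-linked counts. For body weight, 1 member (Ghr) was called in B6 mice only, which are fewer. Of member pairs, 5 had an absolute r of at least 0.5, 3 with surrogate variables removed, 3 by Spearman's rho and 9 in B6 only. Leaving out each double CSS mouse gave 15 to 18 called interactions of the members, 4 to 6 members in the joint interaction test, 7 to 9 in the joint strain test and 44 to 52 called pathway interactions; main effects were not run that way. The median effect over all genes moved by at most 0.03 log2 units, which was without surrogate variables, and by at most 0.009 with DESeq2 size factors. No paired analysis was possible because the labels give the mice no replicate numbers shared between strains.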

Other observations

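Igfbp1 and Stat3 of the pathway list also went with body weight among mice of a strain, in the direction opposite to Ghr and Igf1. Igfbp1 fell by 0.23 log2 units per gram (edgeR adjusted p = 0.00439) and Stat3 by 0.05 (edgeR adjusted p = 0.034), and of the 40 pathway genes measured 3 rose and 3 fell.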
